A study of Mus musculus with 12 samples.

Results

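The genes that encode the proteasome and the proteins that build, activate and inhibit it were followed in mouse liver after a bout of postprandial exercise. Members were all rows of the deposited table whose symbol starts with Psm, then a letter from a to g, then a digit. The rule took 51 of 17432 genes. Of these, 49 passed the filter on low counts and were tested among 12344 genes, while Psma8 and Psmc3ip, with at most 20 counts in any library, were not. The symbol rule also takes Psmc3ip and Psme3ip1, which are named after a subunit that they bind and are not part of the particle. It leaves out the subunits Adrm1 and Sem1 and the assembly factor Pomp. Adrm1 and Pomp are described with the associated genes.

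The livers came from male wild-type C57BL/6J mice aged 8 to 10 weeks. In the Exercise group, 6 refed mice ran on a treadmill for 3 hours, at a speed of 14 m/min. The Sedentary group was 6 mice with the same feeding schedule, and tissue was taken from both groups at the same time. Each mouse gave 1 library of bulk liver messenger RNA, with 18745379 to 19324461 counts. Bulk RNA cannot tell fewer cells of a type from less RNA per cell. Hepatocyte markers led every library, in CPM (counts scaled to library size and to the TMM factors explained below). Their summed level was 111693 to 150535 CPM in sedentary and 140013 to 160485 CPM in exercised livers, and 3 of the 6 markers were called higher. The summed level of 5 striated muscle markers was 9.63 to 19.7 CPM in sedentary livers and 0 to 9.79 CPM (median 0.0798) in exercised livers. The 3 that were tested, Myh6, Myh7 and Actc1, were called lower, with log2 fold changes of -2.72, -3.52 and -2.76 (edgeR adjusted p = 0.0421, 0.00454 and 0.016). The source of this muscle RNA was not tested. Exercise replicate 1 stood apart from its group in these 3 markers, at 5.8, 1.7 and 1.81 CPM, where Myh6 and Myh7 were at 0 in the other 5 exercised livers. The counts of called members are therefore also given without Exercise replicate 1.

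The proteasome is the large protease that degrades proteins tagged with ubiquitin. Its barrel-shaped core has outer alpha rings that gate the entry and inner beta rings, in which Psmb5, Psmb6 and Psmb7 carry the active sites. A regulatory cap binds ubiquitin, removes it, and unfolds the substrate with a ring of ATPases that threads it into the core. Dedicated chaperones assemble the core and the base of the cap. Under interferon, and constitutively in many immune cells, Psmb8, Psmb9 and Psmb10 replace the catalytic subunits in newly made particles, called immunoproteasomes. In the liver, proteasomes share the breakdown of cell protein with autophagy.

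Exercise changed a minority of these genes, most of them by little. With edgeR's quasi-likelihood test and an adjusted p under 0.05, 13 of the 49 tested members (26.5%) were called, against 42.4% of all genes tested. Of these, 3 were higher (Psmd9, Psmd11 and Psme3ip1), where 21.1% of all genes were called higher. The 10 lower members were Psma4, Psmb2, Psmb9, Psmb10, Psmc4, Psmd3, Psmd5, Psme1, Psmf1 and Psmg2, where 21.3% of all genes were called lower. The median log2 fold change was -0.054 over the members and -0.0028 over all genes tested, and the median of its size without sign was 0.0802 against 0.21. Of the 49 log2 fold changes, 36 were negative and 13 positive. Without Exercise replicate 1, 2 members were called higher and 9 lower, since Psme3ip1 and Psmg2 were not called. In that fit 22.4% of members and 40.3% of all genes tested were called.

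The number of lower calls depended on the scaling of the libraries. Levels were scaled with TMM (trimmed mean of M values), which estimates a common factor from most genes. Library size alone moved the median log2 fold change of all genes to -0.098, and then 1 member was called higher and 23 lower. Over all genes the calls were 1767 higher and 3735 lower with library size alone, against 2603 and 2626 with TMM. The median over the members was -0.15 with that scaling, so it lay below that of all genes under both scalings. Of the members called with TMM, 11 were also called with library size alone, and Psmd11 and Psme3ip1 were not.

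**Figure D1:**
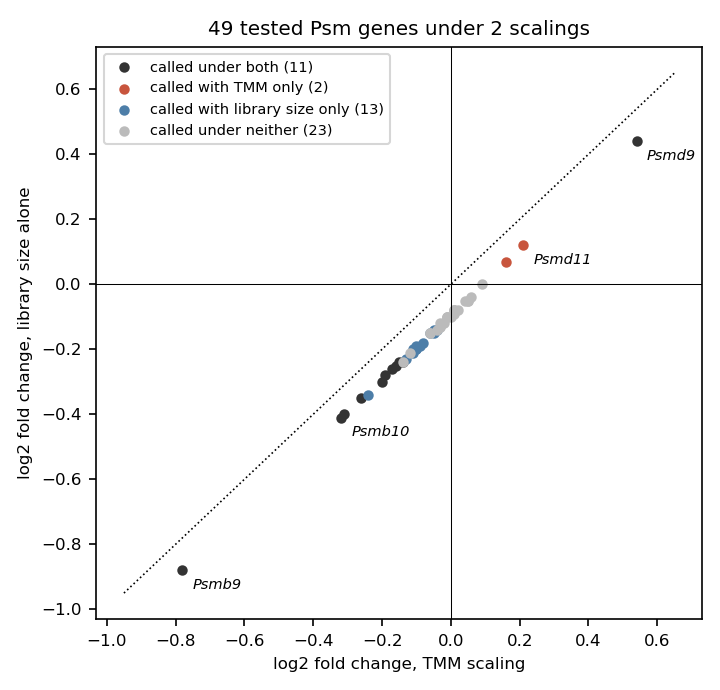
Log2 fold change (Exercise over Sedentary) of the 49 tested members with TMM scaling (x axis) and with library size alone (y axis). Every point lies below the dotted line of equal values, and 13 members were called with library size and not with TMM, all of them lower.

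**Figure D2:**
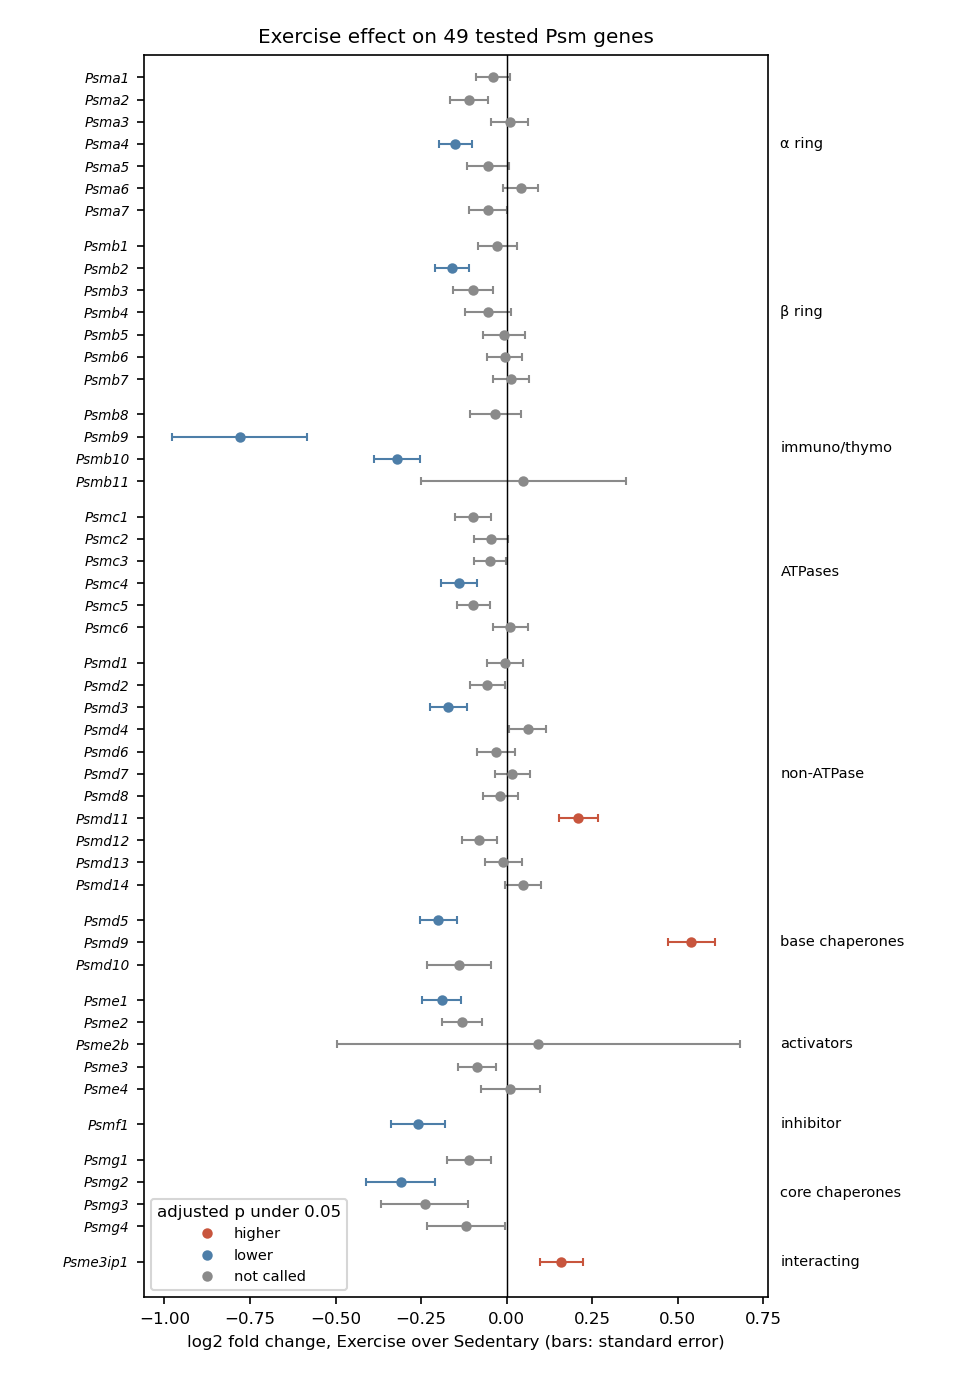
Log2 fold change of each tested member with TMM scaling, points with standard error, grouped by role (right), with members called at an adjusted p under 0.05 in color. Psmd9 stands out on the higher side and Psmb9 on the lower side, while the subunits of the constitutive particle lie close to 0.

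The 31 subunits of the constitutive particle (Psma1 to Psma7, Psmb1 to Psmb7, the ATPases and the non-ATPase Psmd subunits) were measured with small errors and stayed close to 0. Their summed level was 2368 to 2550 CPM in sedentary livers (median 2417) and 2312 to 2428 CPM in exercised livers (median 2373). The groups overlapped in this sum. Of the 31 genes, 5 (16.1%) were called, 1 higher and 4 lower, against 42.4% of all genes tested. Their log2 fold changes reached at most 0.214 in size, with a median standard error of 0.0523. The median size without sign was 0.0486. With library size alone, 13 of the 31 were called, each lower. With that scaling 44.6% of all 12344 genes tested were called, 1767 higher and 3735 lower.

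The alpha ring controls entry to the core. Of its 7 tested members, Psma4 was called lower. Psma4 was at 104 to 118 CPM in sedentary livers (median 108) and at 96.3 to 102 CPM in exercised livers (median 98.8). Each exercised liver lay below each sedentary liver (log2 fold change -0.15, standard error 0.0489, edgeR adjusted p = 0.0194). This call was lost without Sedentary replicate 5. Psma2 was at 56.6 to 65.1 CPM (median 58.2) and 51.3 to 60.3 CPM (median 54.1), with overlap (log2 fold change -0.11, standard error 0.0559, edgeR adjusted p = 0.131). Psma7 overlapped widely, at 53.6 to 65.9 CPM (median 58.3) and 52.6 to 59.9 CPM (median 56.2). Its log2 fold change was -0.054 (standard error 0.056, edgeR adjusted p = 0.467). Psma1, Psma3, Psma5 and Psma6 were not called, with log2 fold changes of -0.04, 0.0092, -0.055 and 0.041. Psma8, an alpha subunit known from testis, had 4 to 20 counts per library.

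In the beta ring, Psmb2 was the member called, and it was lower. Psmb2, a noncatalytic beta subunit, was at 59 to 65.5 CPM in sedentary livers (median 62) and 52.5 to 58.8 CPM in exercised livers (median 56.2). The groups did not overlap (log2 fold change -0.16, standard error 0.0505, edgeR adjusted p = 0.0187), and the call was lost without Exercise replicate 3 or 6. The noncatalytic Psmb3 was at 66.3 to 84.5 CPM (median 74.2) and 65.5 to 71.5 CPM (median 70.2), with a log2 fold change of -0.099 (standard error 0.0589, edgeR adjusted p = 0.192). Psmb4 was at 84.7 to 106 CPM (median 92.8) and 81.7 to 101 CPM (median 87.7), with a log2 fold change of -0.055 (standard error 0.0669, edgeR adjusted p = 0.54). Psmb1 had a log2 fold change of -0.027 and was not called.

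The 3 constitutive catalytic subunits had log2 fold changes near 0. Psmb5, which cuts after hydrophobic residues, was at 63.6 to 77.3 CPM (median 73.8) in sedentary and 66.1 to 75.8 CPM (median 71) after exercise. For Psmb5 the log2 fold change was -0.0076 (standard error 0.0618, 95% interval -0.14 to 0.12, edgeR adjusted p = 0.935). Psmb6, which cuts after acidic residues, was at 101 to 113 CPM (median 107) and 102 to 114 CPM (median 106). The difference was -0.0058 on the log2 scale (standard error 0.0507, 95% interval -0.11 to 0.1, edgeR adjusted p = 0.939). Psmb7, which cuts after basic residues, was at 94.3 to 109 CPM (median 100.4) and 94.5 to 104 CPM (median 103). For Psmb7 the log2 fold change was 0.013 (standard error 0.0523, 95% interval -0.097 to 0.12, edgeR adjusted p = 0.87), and it was -0.08 with library size alone. All 3 overlapped between the groups. Psmb7 shares 405 exon bases with Nek6, a kinase gene on the opposite strand with a mean of 888 counts and a log2 fold change of -0.83 (edgeR adjusted p = 1.86e-06), whose part in the Psmb7 count was not tested. Processed pseudogenes of Psmb5, Psmb6 and Psmb7 are annotated elsewhere in the genome, so reads that these copies share make the values uncertain.

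The inducible catalytic subunits did not move together. Psmb9 and Psmb10 fell and Psmb8 was not called. Psmb9 (chromosome 17 of GRCm38, 34181987 to 34187764), which takes the place of Psmb6, was at 4.77 to 8.41 CPM (median 5.6) in sedentary livers and 2.09 to 5.4 CPM (median 3.54) in exercised livers. Of the exercised livers, 5 of 6 lay below the lowest sedentary liver. Psmb9 had a log2 fold change of -0.78 (standard error 0.197, edgeR adjusted p = 0.0048, two-sided exact permutation p = 0.00649), on 36 to 172 counts per library. It ranged from -0.92 to -0.66 with 1 liver left out at a time. Psmb9 shares 212 exon bases in GENCODE with Tap1, a peptide transporter gene on the opposite strand with a log2 fold change of -0.46 (edgeR adjusted p = 0.0397). Whether reads were counted by strand is not given in the sources used here.

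Psmb10 (chromosome 8, 105935735 to 105938444), which takes the place of Psmb7, was at 21.7 to 27.2 CPM (median 24) in sedentary livers. In exercised livers it was at 18.8 to 21 CPM (median 19.4), below each sedentary liver. The log2 fold change of Psmb10 was -0.32 (standard error 0.0665, edgeR adjusted p = 0.00091, two-sided exact permutation p = 0.00216, the smallest that 6 livers against 6 allow). Psmb8, the inducible partner of Psmb5, was at 11.6 to 16.5 CPM (median 13.3) and 12.6 to 13.8 CPM (median 13.4). The exercised range lay within the sedentary range (log2 fold change -0.033, standard error 0.0752, 95% interval -0.19 to 0.12, edgeR adjusted p = 0.756). Psmb11, the catalytic subunit of the thymus, had at most 21.3 counts per library (log2 fold change 0.049, edgeR adjusted p = 0.915).

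Set against their constitutive partners per transcript length, as FPKM (reads scaled to length and depth), the inducible subunits were minor in every liver. In sedentary livers Psmb9 was at a median of 5.95% of Psmb6 (5% to 8.33%), and in exercised livers at 3.51% (2.32% to 5.67%). Psmb10 was at 18.2% of Psmb7 (15.1% to 21.4%) and at 13.8% (13.2% to 15.3%). In each of these ratios, 5 of 6 exercised livers lay below the lowest sedentary liver. Psmb8 was at 12.8% of Psmb5 (12.2% to 14.9%) and 13% (11.8% to 14.1%), with overlapping ranges. These ratios are taken within a library, so no scaling between libraries enters them. The overlap of Psmb7 with Nek6 applies to the Psmb10 ratio too.

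**Figure D3:**
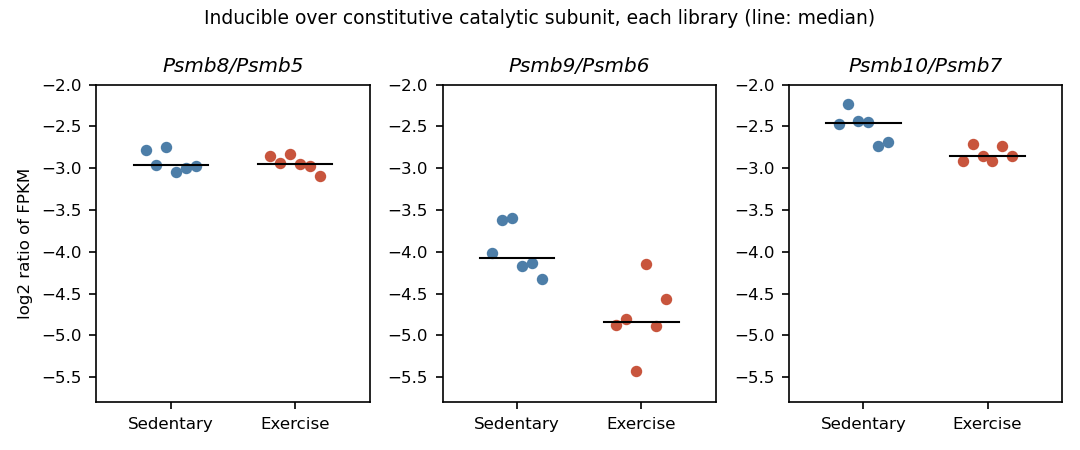
Log2 ratio of FPKM of each inducible subunit to its constitutive partner in each library (points) with the group median (line). The medians were -2.96 and -2.94 for Psmb8/Psmb5, -4.07 and -4.83 for Psmb9/Psmb6, and -2.46 and -2.86 for Psmb10/Psmb7 in sedentary and exercised livers.

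Markers of immune cells, which carry immunoproteasomes, are given here, though many were under the count filter and could not be called. Whether the number of immune cells bears on Psmb9 or Psmb10 was not tested. Of 7 macrophage and Kupffer cell markers, 0 were called by edgeR, with a summed level of 67.1 to 115 CPM in sedentary and 78.7 to 122 CPM in exercised livers. Of 7 listed T and NK cell markers, Trac was not analysed here. The others were under the count filter, with sums of 1.22 to 2.5 CPM and 1.48 to 2.55 CPM. Of 5 B cell markers, 2 were tested and 0 called by edgeR, with sums of 16.7 to 40.7 CPM and 15.6 to 37.3 CPM. Of 4 neutrophil markers, 2 were tested and 0 called by edgeR, with sums of 2.65 to 4.27 CPM and 2.46 to 4.98 CPM. Ly6g had a log2 fold change of -0.54 (edgeR adjusted p = 0.211) and Cxcr2 of 0.23 (edgeR adjusted p = 0.372). S100a8 and S100a9, under the filter, had lower means in exercised livers. None of the immune markers analysed was at 0 in all libraries.

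In the regulatory cap, the 6 ATPases are the motor that unfolds the substrate. Psmc4 was called lower, at 83.4 to 98 CPM (median 95.1) in sedentary livers and 81.1 to 88 CPM (median 85.3) in exercised livers. The groups overlapped (log2 fold change -0.14, standard error 0.0522, edgeR adjusted p = 0.038), and the call held in 3 of 12 fits with 1 liver left out. Psmc5 was at 60 to 67.6 CPM (median 64.4) and 57.7 to 62.6 CPM (median 60.4), with a log2 fold change of -0.098 (standard error 0.0482, edgeR adjusted p = 0.111). Psmc1 was at 80.6 to 89.7 CPM (median 86.2) and 71.8 to 84.5 CPM (median 81.1), with a log2 fold change of -0.097 (standard error 0.0525, edgeR adjusted p = 0.149). Psmc2, Psmc3 and Psmc6 were not called, with log2 fold changes of -0.045, -0.049 and 0.011. Psmc3 shares 215 exon bases with Slc39a13 on the opposite strand, which had a log2 fold change of -0.42 (edgeR adjusted p = 0.000763).

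Of the 11 non-ATPase subunits of the cap, Psmd11 rose and Psmd3 fell. Psmd11 (chromosome 11, 80428615 to 80473248), a scaffold subunit of the lid, was at 69.3 to 84.1 CPM (median 81.1) in sedentary livers. It was at 88.1 to 99.9 CPM (median 91.6) in exercised livers, above each sedentary liver (log2 fold change 0.21, standard error 0.0565, edgeR adjusted p = 0.00546). This call did not hold with library size alone (log2 fold change 0.12, edgeR adjusted p = 0.0788). On the deposited FPKM, which is scaled by depth and estimated length, the log2 fold change was 0.05 (limma adjusted p = 0.475).

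Psmd3, another scaffold subunit of the lid, was at 81.1 to 94.2 CPM (median 86.2) and 70.7 to 82.9 CPM (median 78.1), and 5 of 6 exercised livers lay below the lowest sedentary liver. Psmd3 had a log2 fold change of -0.17 (standard error 0.0539, edgeR adjusted p = 0.0193), a call lost without Exercise replicate 2, Exercise replicate 5 or Sedentary replicate 3. Psmd12, also of the lid, was at 66.5 to 72.7 CPM (median 70.4) and 61.6 to 70.1 CPM (median 66.6), with a log2 fold change of -0.08 (standard error 0.0511, edgeR adjusted p = 0.223). The 8 others were not called and had log2 fold changes from -0.056 (Psmd2, a large subunit of the base) to 0.061 (Psmd4, a ubiquitin receptor). Psmd14, the enzyme that removes ubiquitin chains at the cap, had a log2 fold change of 0.049.

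The 3 chaperones of the base, which bind ATPases until the ring closes, went different ways. Psmd9 rose more than any other member. Psmd9 (chromosome 5, 123228190 to 123250126 in RefSeq) was at 34.3 to 41.2 CPM (median 38.1) in sedentary livers and 47.9 to 62.4 CPM (median 54.6) in exercised livers. Each exercised liver lay above each sedentary liver. Psmd9 had a log2 fold change of 0.54 (standard error 0.0694, edgeR adjusted p = 9.32e-06, two-sided exact permutation p = 0.00216), a level 45.3% higher. It ranged from 0.51 to 0.58 with 1 liver left out at a time, and was 0.44 with library size alone (edgeR adjusted p = 6.29e-05).

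The GENCODE span of Psmd9 reaches across Hpd, a tyrosine breakdown enzyme on the opposite strand. Hpd had a log2 fold change of 0.39 (edgeR adjusted p = 0.000785) and a mean of 51864 counts, but it shares 0 exon bases with Psmd9. In RefSeq the loci are apart, with Hpd at 123171807 to 123182723. The long noncoding RNA Gm26745 on the opposite strand shares 1849 of 7248 exon bases of Psmd9 and was not analysed here. The part of either gene in the Psmd9 count was not tested.

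Psmd5 fell, at 30.3 to 32.4 CPM (median 31.8) in sedentary livers and 25.1 to 29.8 CPM (median 27.3) in exercised livers. The groups did not overlap (log2 fold change -0.2, standard error 0.0544, edgeR adjusted p = 0.00706), and the call held in all 12 fits with 1 liver left out. Psmd5 overlaps Cutal on the opposite strand without shared exon bases, and Cutal had a log2 fold change of -0.75 (edgeR adjusted p = 7.92e-08). Its part in the Psmd5 count was not tested. Psmd10 was at 6.73 to 7.94 CPM (median 7.63) and 5.91 to 8.56 CPM (median 6.44), with overlap (log2 fold change -0.14, standard error 0.0932, edgeR adjusted p = 0.231).

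**Figure D4:**
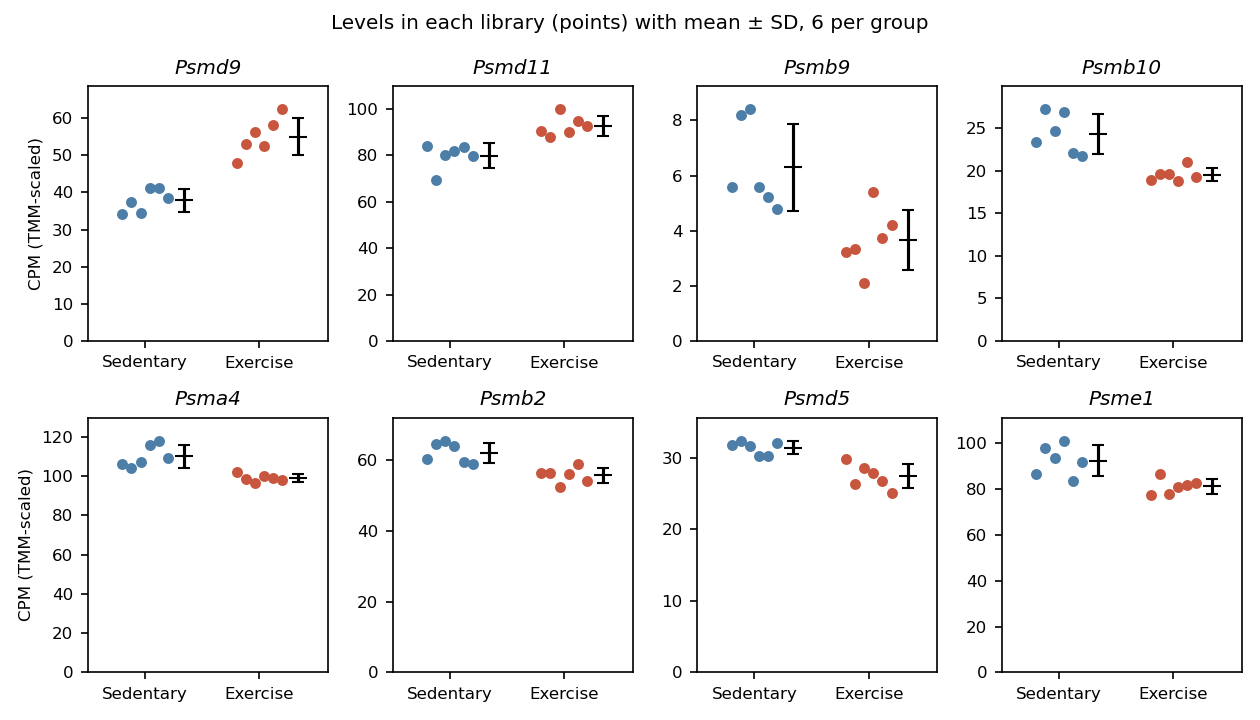
TMM-scaled CPM of 8 called members in each library (points) with mean and SD (bars), 6 livers per group, y axes from 0. Psmd9, Psmd11, Psmb10, Psma4, Psmb2 and Psmd5 do not overlap between the groups, while Psmb9 and Psme1 do.

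Over the 49 tested members, the groups did not overlap in 2 that were higher (Psmd9 and Psmd11), where 11.7% of all genes tested were higher without overlap. They did not overlap in 4 that were lower (Psma4, Psmb2, Psmb10 and Psmd5), where the share of all genes was 10.6%.

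Among the activators, which open the core without ubiquitin, Psme1 fell. Psme1 and Psme2 form the interferon-induced ring that is found with immunoproteasomes. Psme1 was at 83.6 to 101 CPM (median 92.4) in sedentary livers and 77.4 to 86.5 CPM (median 81.4) in exercised livers. Of the exercised livers, 5 of 6 lay below the lowest sedentary liver (log2 fold change -0.19, standard error 0.0562, edgeR adjusted p = 0.0126). It shares 14 exon bases with Emc9 on the opposite strand, which had a log2 fold change of -0.4 (edgeR adjusted p = 0.0011).

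Psme2 was at 55.7 to 69.3 CPM (median 61.6) and 52.3 to 59.2 CPM (median 56), with a log2 fold change of -0.13 (standard error 0.0579, edgeR adjusted p = 0.074). It was called with library size alone (log2 fold change -0.23, edgeR adjusted p = 0.0115). The intronless near-copy Psme2b had at most 16 counts per library (log2 fold change 0.093, edgeR adjusted p = 0.917), and reads shared with Psme2 make both uncertain. Psme3, the nuclear activator, was at 59.4 to 68.9 CPM (median 64.9) and 57.3 to 65.8 CPM (median 60), with a log2 fold change of -0.087 (standard error 0.0552, edgeR adjusted p = 0.219). Psme4, a large single-chain activator, was at 73.7 to 104 CPM (median 92.2) and 80 to 107 CPM (median 91.4). Its log2 fold change was 0.011 (standard error 0.087, 95% interval -0.17 to 0.19, edgeR adjusted p = 0.932), and it was -0.09 with library size alone. Psme3ip1, a nuclear protein that binds Psme3, was at 13.5 to 16.7 CPM (median 15.1) and 16.3 to 17.9 CPM (median 16.8). Its log2 fold change of 0.16 (standard error 0.0625, edgeR adjusted p = 0.0429) was called in 3 of 12 fits with 1 liver left out, and not with library size alone.

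Psmf1, which inhibits the free core, fell. It was at 20.5 to 25.9 CPM (median 24.3) in sedentary livers and 17.4 to 23.2 CPM (median 19.7) in exercised livers, where 3 of 6 lay below the lowest sedentary liver (log2 fold change -0.26, standard error 0.0792, edgeR adjusted p = 0.0146). The Psmg genes encode chaperones that assemble the alpha ring, and all 4 had negative log2 fold changes, of which Psmg2 was called. Psmg2 was at 6.85 to 8.92 CPM (median 8.23) and 5.22 to 7.62 CPM (median 6.65), with overlap (log2 fold change -0.31, standard error 0.102, edgeR adjusted p = 0.0218). The call was lost without Exercise replicate 1 or 3.

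Psmg1, the partner of Psmg2, was at 18.3 to 21.7 CPM (median 19.7) and 16.5 to 19.5 CPM (median 18.8), with a log2 fold change of -0.11 (standard error 0.0643, edgeR adjusted p = 0.175). Psmg3 was at 5.49 to 9.33 CPM (median 6.89) and 5.59 to 6.55 CPM (median 5.92), with a log2 fold change of -0.24 (standard error 0.127, edgeR adjusted p = 0.136). It shares 280 exon bases with Gm26938 on the same strand. Psmg4, the partner of Psmg3, was at 3.9 to 6.45 CPM (median 6) and 4.6 to 5.62 CPM (median 5.23), with a log2 fold change of -0.12 (standard error 0.114, edgeR adjusted p = 0.446). The exercised ranges of Psmg3 and Psmg4 lay within the sedentary ranges.

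Levels of different members can be compared per length, in FPKM, which the deposited table gives. In sedentary livers the beta ring was the most even group. Its means ran from 80.5 FPKM (Psmb2) to 127 FPKM (Psmb6), a ratio of 1.57. The alpha ring ran from 32.2 FPKM (Psma5) to 122 FPKM (Psma3), a ratio of 3.78. The ATPases ran from 35.2 FPKM (Psmc6) to 69.7 FPKM (Psmc4), and the non-ATPase subunits from 26.2 FPKM (Psmd14) to 80.8 FPKM (Psmd8). The same genes were lowest and highest in each of the 4 groups in exercised livers. The chaperones were lower, since Psmd5 was at 16.8 ± 0.981 FPKM, Psmd9 at 15.4 ± 1.16 FPKM and Psmd10 at 5.55 ± 0.222 FPKM (SD, n = 6). After exercise Psmd9 was at 20.9 ± 2.01 FPKM and Psmd5 at 13.6 ± 0.685 FPKM (SD, n = 6). Psmd9 was thus below Psmd5 in the sedentary mean and above it in the exercised mean.

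**Figure D5:**
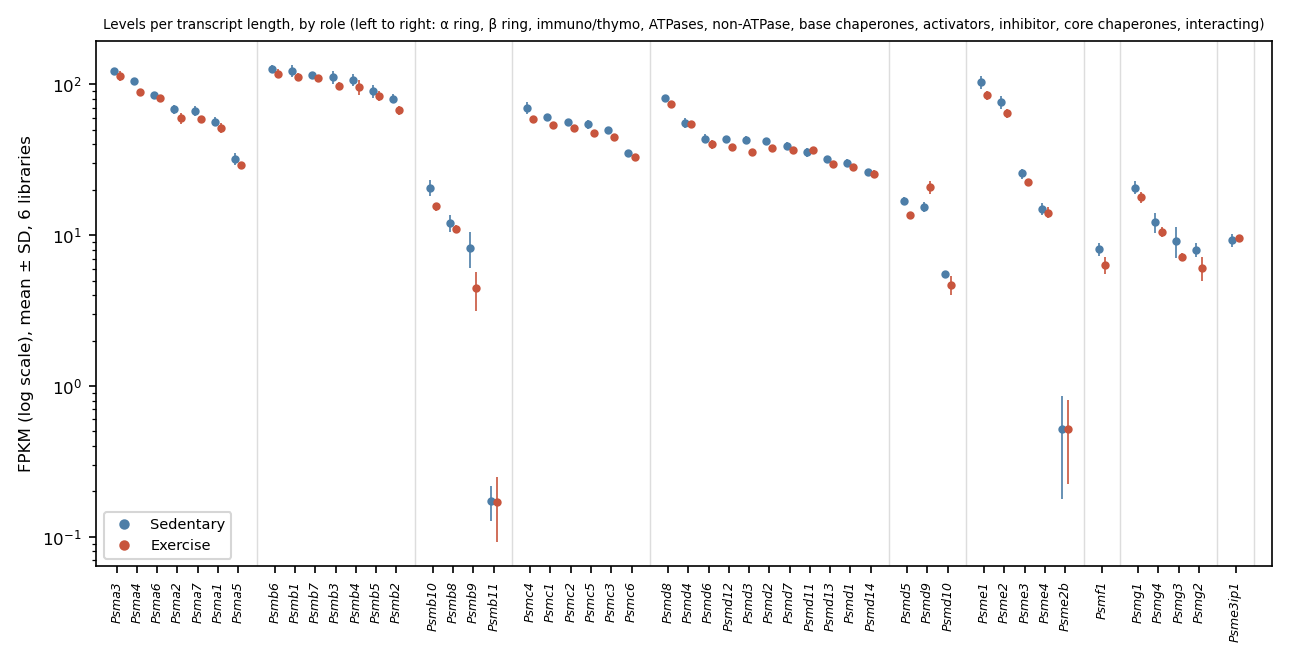
Mean FPKM with SD (6 libraries per group, log axis) of the 49 tested members, grouped by role and ordered by the sedentary mean. The beta ring lies between 80.5 and 127 FPKM in sedentary livers, while Psmb11 and Psme2b lie below 1 FPKM.

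The transcription factor Nfe2l1 is known to raise proteasome genes when proteasome activity is short, through sites with the letters TGACNNNGC, which Nfe2l2 also binds. RefSeq windows of GRCm38.p6 (250 bases before to 50 after each start) were matched for 43 of the 51 members. These letters were present on either strand in 12.8% of 47 member windows and in 12.4% of all 32851 windows. Shown here are the 110 bases before the start of Psmd9 and Psmd11, the members that rose without overlap, and of Psmb5, a catalytic subunit that was not called, each 5′ to 3′ on its own strand with the searched letters in capitals.
Psmd9, plus strand, chr5:123228080-123228189: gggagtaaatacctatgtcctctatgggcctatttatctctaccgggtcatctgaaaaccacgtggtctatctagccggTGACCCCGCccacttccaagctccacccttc
Psmb5, minus strand, chr14:54617996-54618105: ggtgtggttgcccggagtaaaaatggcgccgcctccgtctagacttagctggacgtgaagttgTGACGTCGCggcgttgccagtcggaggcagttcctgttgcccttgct
Psmd11, plus strand, chr11:80428505-80428614: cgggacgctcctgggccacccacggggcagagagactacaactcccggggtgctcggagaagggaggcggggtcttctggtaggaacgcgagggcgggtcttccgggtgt
The letters start 31 bases before the start of Psmd9 and 47 before that of Psmb5, and the stretch of Psmd11 holds none. Psmd9 and Psmb5 both hold these letters, and their log2 fold changes were 0.54 and -0.0076. Binding of a factor to these letters was not tested.

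The shares of other searched letters are given as a description, with no test. CCAAT, the box bound by NF-Y, was in 34% against 37.4%, and GAANNTTC, part of heat shock elements, in 6.38% against 7.86%. GAAANNGAA, part of interferon response elements, was in 14.9% against 8.56%, which is 7 of 47 member windows. They were those of Psmb3, Psmb4, Psmc2, Psmd4, Psmd9, Psme1 and Psmg4. Of these genes, Psmd9 was called higher, Psme1 was called lower and the others were not called. GAAANNGAA was not in the windows of Psmb8, Psmb9 or Psmb10.

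Genes around the proteasome that the symbol rule leaves out were changed about as often as all genes. Of 42 listed genes for ubiquitin, its transfer, its delivery and proteasome-bound factors, 40 were tested and 17 (42.5%) called, 12 higher and 5 lower. Over all genes tested, 42.4% were called, 21.1% higher and 21.3% lower. Adrm1, a ubiquitin receptor subunit of the cap, fell from 100.3 to 115 CPM (median 108) to 90 to 104 CPM (median 96.8), with overlap (log2 fold change -0.15, standard error 0.0531, edgeR adjusted p = 0.0291). Pomp, the maturation factor of the core, was at 84.6 to 96.7 CPM (median 90.7) and 86.5 to 97.3 CPM (median 92.9). Its log2 fold change was 0.028 (standard error 0.0512, edgeR adjusted p = 0.7). Usp14, a deubiquitinase of the cap, had a log2 fold change of 0.046 (standard error 0.0669, edgeR adjusted p = 0.614).

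The transcription factors of proteasome genes were not called. Nfe2l1 was at 58.4 to 73 CPM (median 70.3) and 64.2 to 88.8 CPM (median 70.6), with a log2 fold change of 0.087 (standard error 0.0766, edgeR adjusted p = 0.391). Nfe2l2 was at 48.5 to 62.3 CPM (median 53.5) and 52 to 58.3 CPM (median 54.3), with a log2 fold change of 0.0071 (standard error 0.059, edgeR adjusted p = 0.936). RNA levels do not measure the activity of either protein.

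Among the ubiquitin genes, the polyubiquitin gene Ubb rose. Ubb was at 468 to 596 CPM (median 516) in sedentary livers and 699 to 783 CPM (median 752) in exercised livers, without overlap (log2 fold change 0.49, standard error 0.0659, edgeR adjusted p = 1.53e-05). Rps27a, which encodes ubiquitin fused to a ribosomal protein, had a log2 fold change of 0.053 and was not called.

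The other called genes with the smallest p were Ube3a and Akirin2 on the higher side. Ube3a, a ubiquitin ligase that can bind the proteasome, rose from 24.8 to 32.1 CPM (median 28.4) to 36.8 to 44.5 CPM (median 38.5), without overlap (log2 fold change 0.47, standard error 0.0687, edgeR adjusted p = 3.64e-05). Akirin2, which is needed to import proteasomes into the nucleus, rose from 11.6 to 14.6 CPM (median 12.9) to 16 to 17.9 CPM (median 17.3), also without overlap (log2 fold change 0.41, standard error 0.0638, edgeR adjusted p = 5.96e-05). On the lower side, Rad23b, which shuttles ubiquitin-tagged proteins to the proteasome, had a log2 fold change of -0.19 (standard error 0.0589, edgeR adjusted p = 0.0138) and Ipo9, the importin that works with Akirin2, of -0.21 (standard error 0.0681, edgeR adjusted p = 0.0188).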

How the data were processed

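Liver RNA-Seq of 6 Sedentary and 6 Exercise mice was analysed, grouped by the sample labels. The authors deposited, for each library, an estimated count and an FPKM value per gene, the latter scaled for depth and length. The submitters' processing notes name Bowtie2 2.3.4.3, RSEM 1.3.1 and mm10. The strand setting is not given in the sources used here. Of the deposited counts, 31.3% were not whole and were rounded. Counts were tested with edgeR 4.0.16 (TMM factors, the filterByExpr filter at 10 counts, quasi-likelihood fit with robust dispersions, group as the only term, Benjamini-Hochberg adjustment over all genes tested, threshold 0.05) in R 4.3.3. Single members had a two-sided exact permutation test of mean log2(CPM + 0.5) over all 924 relabellings. Intervals are 95% from the edgeR standard error and its degrees of freedom. The edgeR p-values set the difference between the groups against the spread between mice within them, for these 12 mice.

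Members described in full are the 3 with the smallest p in each role, and always Psmb5 to Psmb10, Psme1 to Psme4, Psmf1, Psmd5, Psmd9, Psmd10 and Psmg1 to Psmg4, with the others given by log2 fold change and call. Members and lists were chosen with earlier results of these data known. Alternatives were other scalings (RLE, upper quartile, library size alone), other filters, DESeq2 1.42.0, limma-voom and limma 3.58.1 on log2(FPKM + 0.1) and log2(FPKM + 1), a threshold of 0.01, the replicate number as a block and leaving out each liver. The scripts were tested on simulated counts. Positions are from GENCODE on GRCm38 and RefSeq on GRCm38.p6, and promoter windows from RefSeq. Of the associated list, Trim63 was under the filter and Paaf1 was not analysed here. A few genes of that list are not reported here.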

Additional observations from a re-analysis of the deposited data

Results flagged for a closer look

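In 98 groups of 6 livers (49 members, each in 2 groups), 5 had a liver far from the other 5, by the gap to its nearest neighbor over the whole range, where chance gives about 4.9. Psmb7 in Exercise replicate 2 was low at 94.5 CPM, with the next liver at 102 CPM (gap over range 0.845). Psmd11 in Sedentary replicate 2 was low at 69.3 CPM, with the next at 79.8 CPM (0.709). Psmd14 in Sedentary replicate 5 was high at 41.2 CPM, with the next at 38.3 CPM (0.661). Psmb10 in Exercise replicate 5 was high at 21 CPM, with the next at 19.6 CPM (0.654), still below each sedentary liver. Psmc1 in Exercise replicate 2 was low at 71.8 CPM, with the next at 80.1 CPM (0.653).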

How the results depend on the processing

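The calls of Psmd9, Psmb9, Psmb10 and Psmd5 held under all 11 other settings and in all 12 fits that left out 1 liver. Library size alone and the limma fits on log2(FPKM + 0.1) and log2(FPKM + 1) each called 1 member higher, and 23, 23 and 24 lower. They called 49%, 49% and 51% of the members, and 44.6%, 43.9% and 44% of all genes tested. Of all genes, 3735, 3714 and 3718 were lower and 1767, 1702 and 1714 higher. Under these 3 settings 1 member was higher without overlap (Psmd9) and 7 were lower. The share of all genes without overlap was not computed for these settings. An adjusted p under 0.01 left 2 higher and 3 lower members, 10.2% of those tested, where 29% of all genes tested were called. Of the associated genes, 10 were still called higher and 1 lower. The median log2 fold change of all genes was -0.098 with library size alone, -0.093 with FPKM + 0.1 and -0.066 with FPKM + 1. It was -0.0028 with TMM, and the cause of these changes in calls was not tested. With 1 liver left out, 2 to 3 members were called higher and 7 to 10 lower. Lower calls were fewest without Exercise replicate 3, where 18% of members and 38.3% of all genes tested were called. Of the associated genes, 2 to 5 were called lower, 2 without Exercise replicate 4 or 5 and 3 without Sedentary replicate 3. The cause of this change was not tested. Members at a log2 fold change near 0, none of them called, changed sign. Psmb7 was at -0.0827, -0.0763, -0.0757 and -0.00797 with library size alone, FPKM + 0.1, FPKM + 1 and upper quartile scaling, and Psme4 at -0.0853, -0.0835, -0.0788 and -0.00859. With 1 liver left out, Psmb5 ranged from -0.0397 to 0.0171, Psmb6 from -0.0234 to 0.0117, Psmb7 from -0.00619 to 0.0378, Psmb8 from -0.0706 to 0.028 and Psme4 from -0.0439 to 0.0577. The replicate numbers are shared by both groups but nothing says that they pair mice, and same-numbered livers correlated between -0.099 and 0.16 in their deviations from the group means, with 2 of 6 sedentary livers closest to their own number. With the number as a block, 2 members were called higher and 9 lower (Psmc4 and Psme3ip1 were not called), and 4956 genes in all against 5229. Few counts limit precision in Psme2b and Psmb11, with standard errors of 0.588 and 0.299.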
